A study of Mus musculus with 8 samples.

Results

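The 10 genes described here encode enzymes and transporters of hepatic bile acid metabolism in the mouse. The choice followed their roles, though earlier results of these data were known when it was made: the central enzymes of the classic, acidic and 24-hydroxycholesterol pathways (Cyp7a1, Cyp8b1, Cyp27a1, Cyp7b1 and Cyp39a1), the conjugating enzymes Baat and Slc27a5, and the transporters Slc10a1, Abcb11 and Abcb4. Each symbol matched 1 of the 46517 genes in the count table. All 10 passed the filter on low counts, as did 13278 genes in all.

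Liver RNA was sequenced from male C57BL/6 mice fed a diet that induces nonalcoholic steatohepatitis (NASH), to ask how loss of FoxO1 in myeloid cells affects the liver transcriptome. The 4 MøFoxO1-KO mice carried FoxO1 loxP/loxP alleles and Lyz2-Cre, whose recombinase is driven by the lysozyme 2 promoter in macrophages, neutrophils and other myeloid cells. The 4 WT littermates carried the same floxed alleles without Cre, and both groups started the NASH diet when 6 weeks old, stayed on it for 25 weeks, and were fasted for 16 hours before collection at 31 weeks of age. The animals are named by genotype and number, WT 22 to WT 25 and KO 26 to KO 29. The genotypes share no animal number, and which mice shared a litter is not given in the sources used here.

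Hepatocytes make bile acids from cholesterol. In the classic pathway CYP7A1 hydroxylates cholesterol at position 7, and CYP8B1 adds the hydroxyl group at position 12 that sets cholic acid apart from chenodeoxycholic acid and, in the mouse, the muricholic acids. In the alternative routes a side chain is oxidized first, by CYP27A1 in the acidic pathway, and the resulting oxysterol is then hydroxylated at position 7 by CYP7B1, or by CYP39A1 where the oxysterol is 24-hydroxycholesterol. SLC27A5 and BAAT join bile acids to coenzyme A and to taurine or glycine. SLC10A1 (NTCP) takes bile salts up from portal blood, ABCB11 (BSEP) exports them into the canaliculus, and ABCB4 (MDR2) moves phosphatidylcholine into bile. In mouse liver Cyp7b1 is known as a gene with higher expression in males, and Cyp39a1 as one with higher expression in females.

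The enzymes at both ends of the results, Cyp7b1 and Cyp39a1, catalyze the same kind of reaction on different oxysterols, and their coding sequences are shown here around the cysteine that binds the haem iron. The pattern F..G...C.G, in which a dot is any amino acid, was searched in the coding sequence of 1 GENCODE M21 transcript per gene (GRCm38), and each gene shown had 1 match. The 30 bases are printed 5′ to 3′ on the coding strand, with the cysteine codon in capitals.
Cyp7b1: tttggactcggaacaagcaaaTGTccaggg
Cyp39a1: tttggaggcgggaagttccagTGTcctgga
Cyp7a1: tttggatcaggagctacaataTGTcctgga
Cyp27a1: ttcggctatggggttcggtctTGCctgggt
The Cyp7b1 stretch is at chr3:18072634-18072663 on the minus strand, in exon 6 of 6. The Cyp39a1 stretch is at chr17:43731982-43732011 on the plus strand, in exon 10 of 12. Those of Cyp7a1 and Cyp27a1 are at chr4:6268386-6268415 (minus strand, exon 6 of 6) and chr1:74737320-74737349 (plus strand, exon 8 of 9). Cyp7b1 and Cyp39a1 had the same base at 19 of 30 positions, Cyp7b1 and Cyp7a1 at 20, and Cyp39a1 and Cyp7a1 at 17, whereas Cyp27a1 matched each of Cyp7b1 and Cyp39a1 at 12. Part of this identity was given in advance, as the amino acids named in the pattern fix some bases in every stretch. Cyp8b1 held no match to this pattern. Over whole transcripts, no stretch of 50 bases in Cyp7a1, Cyp8b1, Cyp27a1, Cyp7b1, Cyp39a1, Baat or Slc27a5 was found in the transcripts of another gene. The shares were 0.957% for Slc10a1, 1.68% for Abcb11 and 2.87% for Abcb4. Thus at that length the transcripts of the oxysterol 7α-hydroxylases were unique among the transcripts compared. How the counting treated reads that match several places is not given in the sources used here.

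Libraries held between 15253218 and 18025481 counts, of which the 10 genes took 0.298% to 0.403%. Values below are normalized counts, the deposited counts scaled by the trimmed mean of M values (TMM) to a common library size. Fold changes are log2 of MøFoxO1-KO over WT, from the quasi-likelihood test of edgeR, with P values adjusted over all 13278 genes by the Benjamini-Hochberg method. Genes with an adjusted P under 0.05 are described as called. Whole-liver Foxo1 was 404 ± 73.9 (SD, n = 4) in WT and 359 ± 73.4 in MøFoxO1-KO livers (log2 fold change -0.17, adjusted P = 0.686 by edgeR). Hepatocytes, which Lyz2-Cre does not target, express Foxo1 too, so its whole-liver level is no check of the genotype. In all 8 livers the Y-linked transcripts Ddx3y, Eif2s3y, Kdm5d and Uty were present, at 156 normalized counts or more, and Xist was at most 5.62, which matches the labelled sex. Albumin, the defining hepatocyte transcript, was between 682700 and 1129000 normalized counts in every library.

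Of the 10 genes, Cyp7b1 rose and Cyp39a1 fell in MøFoxO1-KO livers. The other 8 did not pass the test. Across all genes 39 of 13278 were called (0.294%), 16 of them higher (0.121%) and 23 lower (0.173%). Cyp7b1 and Cyp39a1 were also among the 25 of 13278 genes (0.188%) that were both called and had an absolute log2 fold change over 1.5. The median log2 fold change of the 10 genes was -0.11, with 4 higher and 6 lower, beside a median of -0.01 and 48.3% higher over all genes tested. As bulk liver was sequenced, fewer cells that express a gene and less RNA per cell cannot be told apart. All P values set the genotype difference against the spread between these mice.

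**Figure D1:**
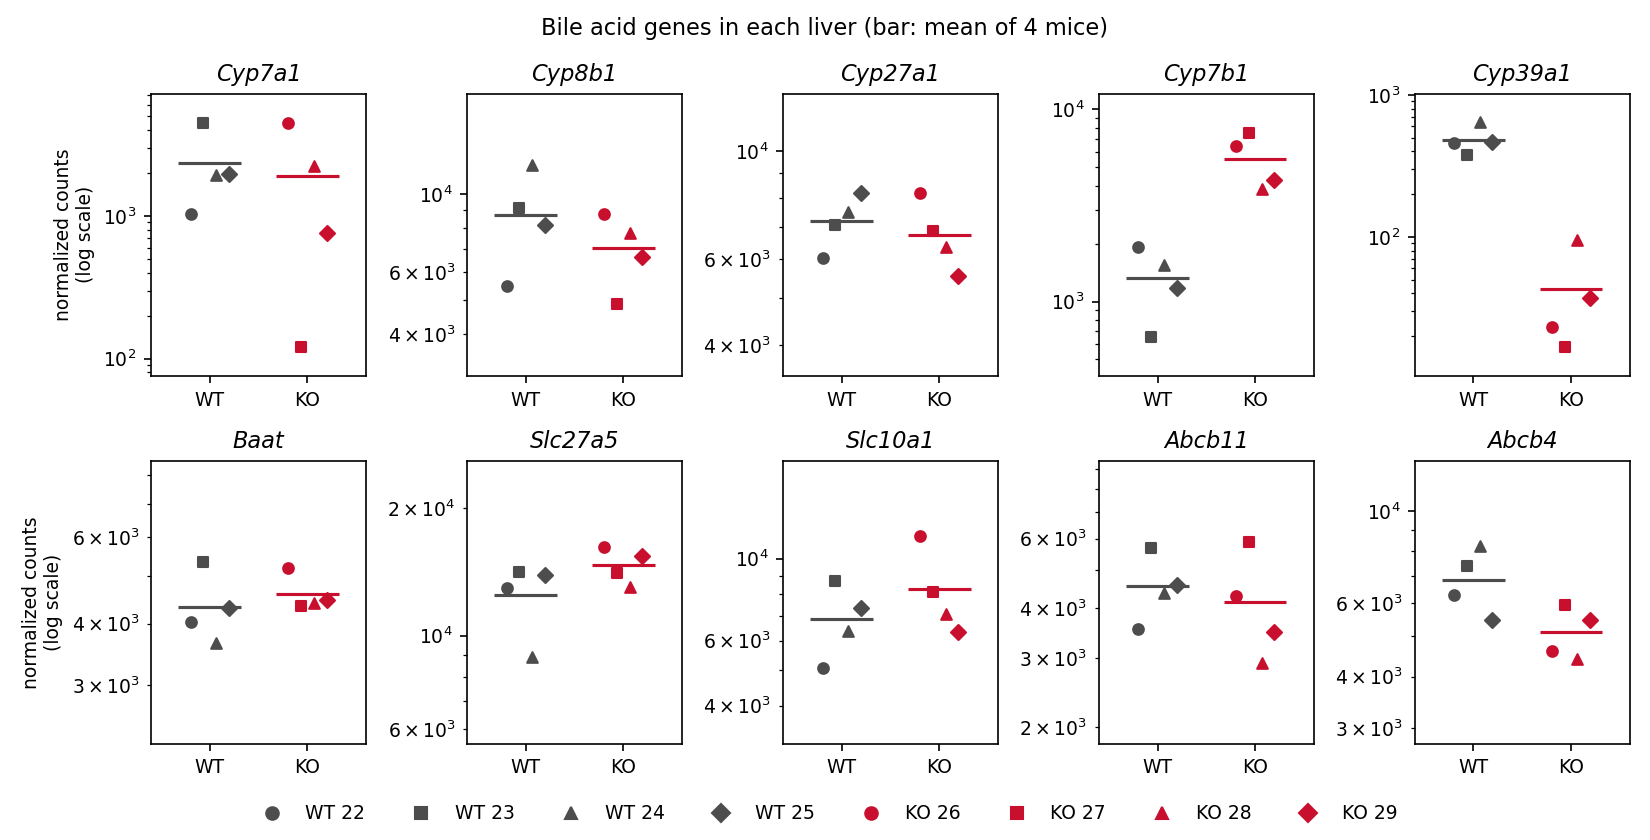
Normalized counts (log scale, a separate range in each panel) of the 10 bile acid genes in 4 WT (grey) and 4 MøFoxO1-KO (red) livers, with a marker shape for each mouse and a bar at the mean. WT and MøFoxO1-KO points separate in the Cyp7b1 and Cyp39a1 panels and overlap in the other 8.

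Cyp7b1, the oxysterol 7α-hydroxylase of the acidic pathway (chr3:18071950-18243338, minus strand), was at 1919, 655, 1542 and 1174 normalized counts in WT 22 to WT 25. In KO 26 to KO 29 it was at 6431, 7561, 3867 and 4317. The lowest MøFoxO1-KO liver lay above the highest WT liver. The means were 1323 ± 539 in WT and 5544 ± 1749 in MøFoxO1-KO livers (SD, n = 4), a ratio of 4.19. The log2 fold change was 2.07 (SE 0.33, 95% interval 1.33 to 2.80, adjusted P = 0.037 by edgeR), and the exact two-sided permutation test gave P = 0.0286, the smallest that 4 against 4 mice allow. By P value Cyp7b1 was number 32 of all genes tested. The call did not hold when some mice were left out. The adjusted P in edgeR was 0.056 without WT 22, 0.0708 without WT 24, 0.0863 without WT 25, 0.115 without KO 26, 0.135 without KO 27 and 0.0702 without KO 29, while the log2 fold change stayed between 1.84 and 2.30 over all 8 omissions.

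Cyp39a1, which hydroxylates 24-hydroxycholesterol at position 7 (chr17:43667425-43751431, plus strand), moved the other way. It was at 460, 375, 640 and 466 normalized counts in WT 22 to WT 25, and at 23.01, 16.7, 95.9 and 36.9 in KO 26 to KO 29. No MøFoxO1-KO liver reached the lowest WT liver, and KO 28 was the highest of its group. The deposited counts behind the MøFoxO1-KO values were 24, 14, 101 and 33, against 381 to 693 in WT. The means were 485 ± 111 and 43.1 ± 36.1 (SD, n = 4), an 11.2-fold higher level in WT. Its log2 fold change was -3.47 (SE 0.45, 95% interval -4.48 to -2.46, adjusted P = 0.0171 by edgeR; exact permutation P = 0.0286, again the smallest possible), which ranked number 11 by P value. Here too some omissions ended the call. The adjusted P in edgeR was 0.05 when rounded (just above the threshold) without WT 22, 0.0542 without WT 25, 0.0692 without KO 26, 0.0709 without KO 27 and 0.061 without KO 29. Without KO 28 and KO 27 the log2 fold change was -4.23 and -3.21, the ends of the range over all omissions.

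Within single livers the levels of both enzymes can be set against each other per kilobase of exon, which needs no scaling between libraries. The ratio of Cyp39a1 to Cyp7b1 was 0.17, 0.406, 0.294 and 0.282 in WT 22 to WT 25. It was 0.00254, 0.00157, 0.0176 and 0.00607 in KO 26 to KO 29, below every WT liver, with a mean difference of -5.92 on the log2 scale. The ratio of Cyp7b1 to Cyp27a1, which supplies the acidic pathway with 27-hydroxycholesterol, was 0.319, 0.0932, 0.207 and 0.144 in WT and 0.788, 1.11, 0.609 and 0.782 in MøFoxO1-KO livers. These groups did not overlap either, and in KO 27 the level of Cyp7b1 per kilobase exceeded that of Cyp27a1. The remaining ratios computed, those of Cyp8b1 to Cyp7a1, Slc27a5 to Baat, Abcb11 to Slc10a1 and Abcb4 to Abcb11, all overlapped between genotypes. The ratios are descriptions. The first combines both called genes and the second holds Cyp7b1, so their separation restates those calls. The remaining ratios hold no called gene.

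**Figure D2:**
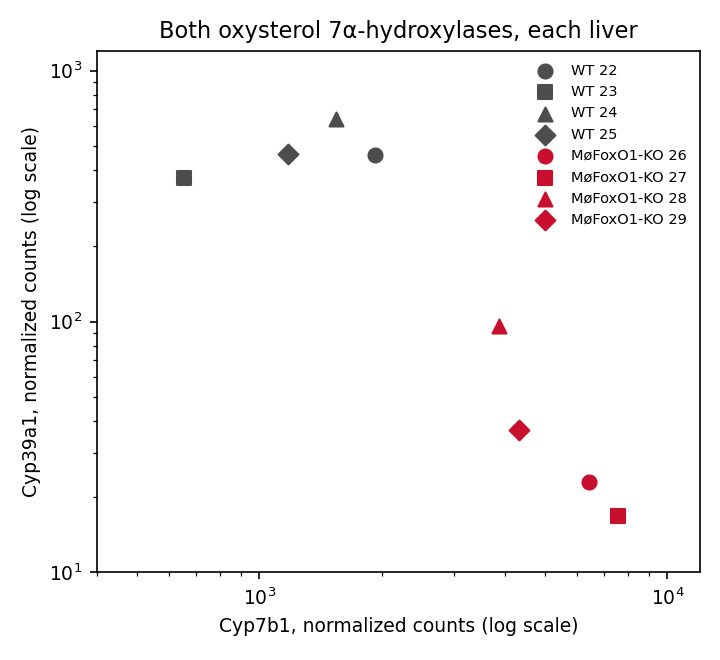
Cyp7b1 (horizontal axis) against Cyp39a1 (vertical axis) in each of the 8 livers, both in normalized counts on log scales. The WT livers (grey) lie at 655 to 1919 for Cyp7b1 and 375 to 640 for Cyp39a1, and the MøFoxO1-KO livers (red) at 3867 to 7561 and 16.7 to 95.9.

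Cyp27a1, the mitochondrial sterol 27-hydroxylase that opens the acidic pathway, did not pass the test. It was at 6030, 7049, 7492 and 8189 normalized counts in WT and 8190, 6849, 6371 and 5535 in MøFoxO1-KO livers, with almost full overlap. Its log2 fold change was -0.09 (SE 0.15, 95% interval -0.44 to 0.25, adjusted P = 0.799 by edgeR). Thus the interval for Cyp27a1 did not reach the size of the Cyp7b1 difference.

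Cyp7a1, the rate-limiting enzyme of the classic pathway, varied more between mice of one genotype than between genotypes. It was at 1029, 4497, 1922 and 1951 normalized counts in WT and 4447, 121, 2232 and 760 in MøFoxO1-KO livers. KO 27 stood far below the rest, and the highest values, in WT 23 and KO 26, were close to each other across genotypes. The highest liver held 4.37 times the lowest in WT and 36.9 times the lowest in MøFoxO1-KO mice. The log2 fold change was -0.31 (SE 0.81, 95% interval -2.12 to 1.49, adjusted P = 0.882 by edgeR), and this width leaves a difference in either direction unresolved. The estimate was 0.08 without KO 27 and 0.21 without WT 23. The within-genotype SD of Cyp7a1 on the log2 scale was 1.72, number 11 among the 2087 genes with a mean of at least 1000 normalized counts, whose median SD was 0.21.

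Values of other genes in the mice with extreme Cyp7a1 levels are given for context, and the genes were chosen after their values were seen. Nr0b2, the corepressor SHP that lowers Cyp7a1 transcription in bile acid feedback, was at 1869 normalized counts in KO 27, 2055 in KO 28, 774 in KO 26 and 676 in KO 29, with WT livers between 932 and 1370. Cyp7a1 was at 121 in KO 27, 2232 in KO 28, 4447 in KO 26 and 760 in KO 29. Dbp, a circadian activator of Cyp7a1, was lowest in WT 23 (286 normalized counts), the WT liver with the most Cyp7a1, with the other WT livers between 697 and 1839. In the MøFoxO1-KO group, Dbp was at 1994 in KO 26 and 2015 in KO 28, the livers with the most Cyp7a1. It was at 984 in KO 27 and 559 in KO 29, those with the least. Within each of these pairs the order was reversed. KO 28 had more Dbp but less Cyp7a1 than KO 26, and KO 27 more Dbp but less Cyp7a1 than KO 29. Cyp2a12, which hydroxylates bile acids, was also lowest in KO 27, at 435 normalized counts, with the other 7 livers between 3067 and 9612. Their part in the Cyp7a1 spread was not tested.

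Cyp8b1, the sterol 12α-hydroxylase, was at 5482, 9148, 12090 and 8162 normalized counts in WT and 8800, 4872, 7778 and 6632 in MøFoxO1-KO livers. The groups overlapped, with WT 24 highest and KO 27 lowest. Its log2 fold change was -0.31 (SE 0.25, 95% interval -0.87 to 0.24, adjusted P = 0.569 by edgeR). Cyp8b1 and Cyp7a1 thus had the same estimated difference, with a narrower interval for Cyp8b1.

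The conjugating enzymes overlapped between genotypes. Baat was at 4029, 5349, 3654 and 4299 normalized counts in WT and 5191, 4343, 4409 and 4460 in MøFoxO1-KO livers (log2 fold change 0.09, 95% interval -0.23 to 0.40, adjusted P = 0.800 by edgeR). Slc27a5, the bile acyl-CoA synthetase, was at 12920, 14140, 8885 and 13930 in WT and 16150, 14080, 13030 and 15380 in MøFoxO1-KO livers (log2 fold change 0.23, 95% interval -0.14 to 0.60, adjusted P = 0.521 by edgeR). WT 24 was the lowest liver for both genes. A rise of more than 0.604 on the log2 scale lay outside both intervals.

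The transporters did not pass the test either. Slc10a1 was at 5051, 8702, 6356 and 7353 normalized counts in WT and 11480, 8121, 7079 and 6338 in MøFoxO1-KO livers, with KO 26 above all others (log2 fold change 0.27, 95% interval -0.22 to 0.75, adjusted P = 0.584 by edgeR). Abcb11 was at 3548, 5695, 4371 and 4581 in WT and 4305, 5895, 2912 and 3478 in MøFoxO1-KO livers, with KO 27 highest and KO 28 lowest (log2 fold change -0.13, 95% interval -0.63 to 0.37, adjusted P = 0.806 by edgeR). Of the Abcb11 exon bases, 3.01% overlap Gm13613 and Gm13614 on the opposite strand, and whether the counting used strand is not given in the sources used here.

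Abcb4, the canalicular phosphatidylcholine floppase, was at 6281, 7376, 8254 and 5484 normalized counts in WT and 4614, 5958, 4413 and 5462 in MøFoxO1-KO livers. The 2 lowest livers were KO 28 and KO 26, but WT 25 lay below KO 27, so the groups overlapped. The log2 fold change was -0.42 (SE 0.16, 95% interval -0.78 to -0.06), with an unadjusted P of 0.026 and an adjusted P of 0.238 in edgeR. At an unadjusted P under 0.05, 3 of the 10 genes were reached (Cyp7b1 higher, Cyp39a1 and Abcb4 lower), beside 8.65% of all genes in the higher and 8.06% in the lower direction. The genotypes did not overlap in 2 of the 10, beside 9.71% of all genes tested.

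**Figure D3:**
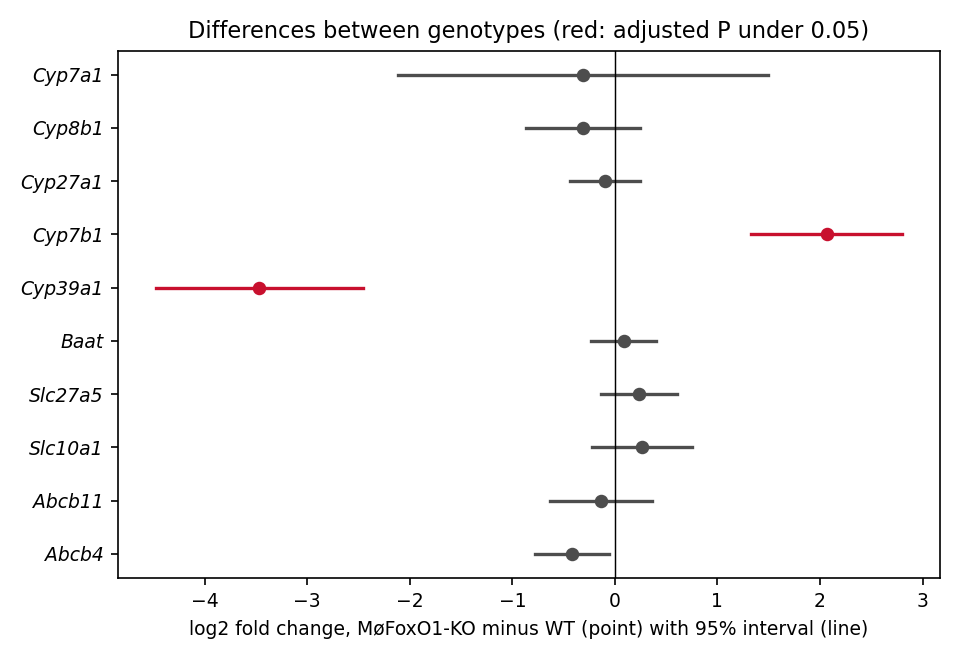
Log2 fold change (MøFoxO1-KO minus WT, horizontal axis) of the 10 bile acid genes, with the 95% interval as a line and genes with an adjusted P under 0.05 in red. Cyp7b1 at 2.07 and Cyp39a1 at -3.47 stand apart, Cyp7a1 has the widest interval of the 8 that did not pass, and the Abcb4 interval lies below 0.

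Compared per kilobase of exon, which allows levels of different genes to be set side by side, Slc27a5 was the most abundant of the 10 genes in WT livers (mean 5100 normalized counts per kb), followed by Cyp8b1 (4471), Slc10a1 (4101), Cyp27a1 (3309) and Baat (2232). Abcb11 (884), Abcb4 (730), Cyp7b1 (611), Cyp7a1 (563) and Cyp39a1 (159) came after a gap. Each gene's range over WT mice overlapped that of the next in order except from Cyp27a1 to Baat, from Baat to Abcb11 and from Cyp7a1 to Cyp39a1. In MøFoxO1-KO livers Cyp7b1 stood in place 5 in place of 8, at 2560 per kb, between Cyp27a1 (3100) and Baat (2370) and overlapping both. Cyp39a1 was last in both genotypes, at 14.1 per kb in MøFoxO1-KO livers, where its range reached that of Cyp7a1 through KO 27.

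Other genes of bile acid metabolism were followed as lists. Over all genes tested, edgeR called 0.294%, and at an unadjusted P under 0.05 it had 8.65% higher and 8.06% lower. Of 21 further synthesis enzymes, 19 were tested, with 11 higher, 8 lower, a median log2 fold change of 0.01, and none called at an adjusted P under 0.05 in edgeR (2 reached an unadjusted P under 0.05, both higher). Those with the smallest P were Fdx1, the ferredoxin that passes electrons to CYP27A1 (0.46, adjusted P = 0.190 by edgeR), the peroxisomal thioesterase Acot8 (0.27), the P450 reductase Por (0.28) and the hydroxysteroid dehydrogenase Akr1c6 (0.31). Of 22 sensors and regulators, 19 were tested, with 4 higher, 15 lower, a median of -0.13, none called, and 1 at an unadjusted P under 0.05. That gene was Nr1h3, the oxysterol receptor LXRα (0.31, adjusted P = 0.212 by edgeR). Hnf4a had -0.32, Nfil3 -0.20 and Nr1i2, the pregnane X receptor, -0.16. The synthesis enzymes ranged from -1.01 for Cyp2a12 to 0.65 for Cyp2c70, and the regulators from -0.32 for Hnf4a to 0.46 for Dbp, all nearer to 0 than Cyp7b1 and Cyp39a1.

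Among 16 other bile acid and bile lipid transporters, 14 were tested and 1 was called, Abcc4 (MRP4), a basolateral exporter of bile salts. It was at 261, 431, 143 and 121 normalized counts in WT and 19.2, 33.4, 48.4 and 33.6 in MøFoxO1-KO livers, and the groups did not overlap. Abcc4 fell by 2.82 on the log2 scale (SE 0.44, adjusted P = 0.0337 by edgeR), with a range of -3.05 to -2.38 as mice were left out. The adjusted P was 0.114 in limma-voom, and in edgeR it was 0.0856 without WT 22, 0.0513 without WT 25, 0.115 without KO 26, 0.135 without KO 27 and 0.0788 without KO 29. The list had 9 higher, 5 lower and a median log2 fold change of 0.07. Over all genes tested, 8.65% were higher and 8.06% lower at an unadjusted P under 0.05 in edgeR. The genotypes did not overlap in 9.71% of all genes tested. At an unadjusted P under 0.05, 2 of the 14 were higher and 3 lower, among them the uptake carrier Slco1a1 at 2.005, the related carrier Slco1a4 at -0.66, and the basolateral exporter Abcc3 at -0.52 (adjusted P = 0.128, 0.218 and 0.253 by edgeR). Slco1a1 was at 827, 391, 2799 and 1177 normalized counts in WT and 5927, 7172, 4580 and 3173 in MøFoxO1-KO livers, without overlap. Of 8 genes of sulfation and glucuronidation (Sult2a sulfotransferases, Papss2, Ugt1a1 and Ugt2b5), 5 were tested and none was called by edgeR. At an unadjusted P under 0.05, 1 was higher and 1 lower. Their summed level was 21760 to 26870 normalized counts in WT and 31380 to 35040 in MøFoxO1-KO livers, without overlap. Sult2a8 and Ugt2b5 made up most of this sum, with means of 10709 and 11832 in WT and 17160 and 13983 in MøFoxO1-KO livers. Sult2a8, a hepatic bile acid sulfotransferase, was at 9012, 9097, 11560 and 13160 in WT and 19450, 17860, 16350 and 14980 in MøFoxO1-KO livers (log2 fold change 0.68, adjusted P = 0.115 by edgeR). Ugt1a1, the bilirubin glucuronosyltransferase, had -0.52, Sult2a7 0.38 and Ugt2b5 0.24.

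As Cyp7b1 and Cyp39a1 have opposite sex bias in mouse liver, lists of such genes are given beside them. The lists were chosen with results of these data known and include genes that earlier results of these data, the study's own among them, had named, so their counts are no independent evidence. All 16 male-biased genes tested had a positive log2 fold change (median 1.81), and 6 were called (Hsd3b5, Mup1, Nudt7, Susd4, Mup12 and Cyp7b1). Over all genes tested, 48.3% had a positive log2 fold change, and edgeR called 0.121% higher and 0.173% lower. When each mouse was left out in turn, Mup1, Susd4, Nudt7 and Mup12 were called in 6, 5, 4 and 3 of 8 omissions. The adjusted P was 0.065 for Mup1 in limma-voom and 0.063 for Mup12 in the robust edgeR fit. Of 18 female-biased genes, 11 were tested. All 11 had a negative log2 fold change (median -1.53), and 3 were called (Cyp2a4, Cyp39a1 and Hao2). Without the low-count filter, 15 of the 18 had a negative value, while 1 of the 18 was at 0 in all livers. The negative direction was thus not shared by every female-biased gene with counts. Hao2 and Cyp2a4 held 1 and 6 counts in KO 27, under the minimum of 10, so they were tested because of their WT levels. Hsd3b5 held 3 counts in WT 23 and was tested because of its MøFoxO1-KO levels. For such genes the filter in part set the direction.

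Hsd3b5, a male-specific hydroxysteroid dehydrogenase, was at 12.2, 2.95, 45.2 and 30.9 normalized counts in WT and 3756, 3460, 1175 and 775 in MøFoxO1-KO livers (log2 fold change 6.64, adjusted P = 0.0136 by edgeR). Hao2, a female-biased hydroxyacid oxidase, was at 331, 571, 50.8 and 564 in WT and 11.5, 1.19, 18.03 and 11.2 in MøFoxO1-KO livers (-5.12, adjusted P = 0.0337 by edgeR). Cyp2a4, a female-biased steroid hydroxylase, was at 114, 125, 268 and 163 in WT and 23.96, 7.17, 13.3 and 20.2 in MøFoxO1-KO livers (-3.35, adjusted P = 0.0147 by edgeR). With WT 25 left out, the adjusted P of Hsd3b5 and of Cyp2a4 was 0.0513 in edgeR, and both stayed called without any other single mouse. In limma-voom the adjusted P of Hsd3b5 was 0.0615. Hao2 was called in 2 of 8 omissions, with adjusted P values of 0.0581 (without WT 23) to 0.129 (without KO 27) in edgeR when WT 22, WT 23, WT 25, KO 26, KO 27 or KO 29 was left out. Its adjusted P was 0.237 in limma-voom and 0.0691 in the robust edgeR fit. None of these 3 genes overlapped between genotypes, and KO 26 and KO 27, with the most Cyp7b1 and the least Cyp39a1, also had the most Hsd3b5. Cyp2a4 did not follow this order. Hao2 and Cyp2a4 were both lowest in KO 27, but in KO 26 Cyp2a4 was the highest of its group. Hao2 in KO 26 (11.5) was too close to KO 29 (11.2) to be ranked. The Mup genes and Cyp2a4 have near-identical paralogs, so their counts are uncertain. How sex-biased expression relates to the Cyp7b1 and Cyp39a1 differences was not tested.

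**Figure D4:**
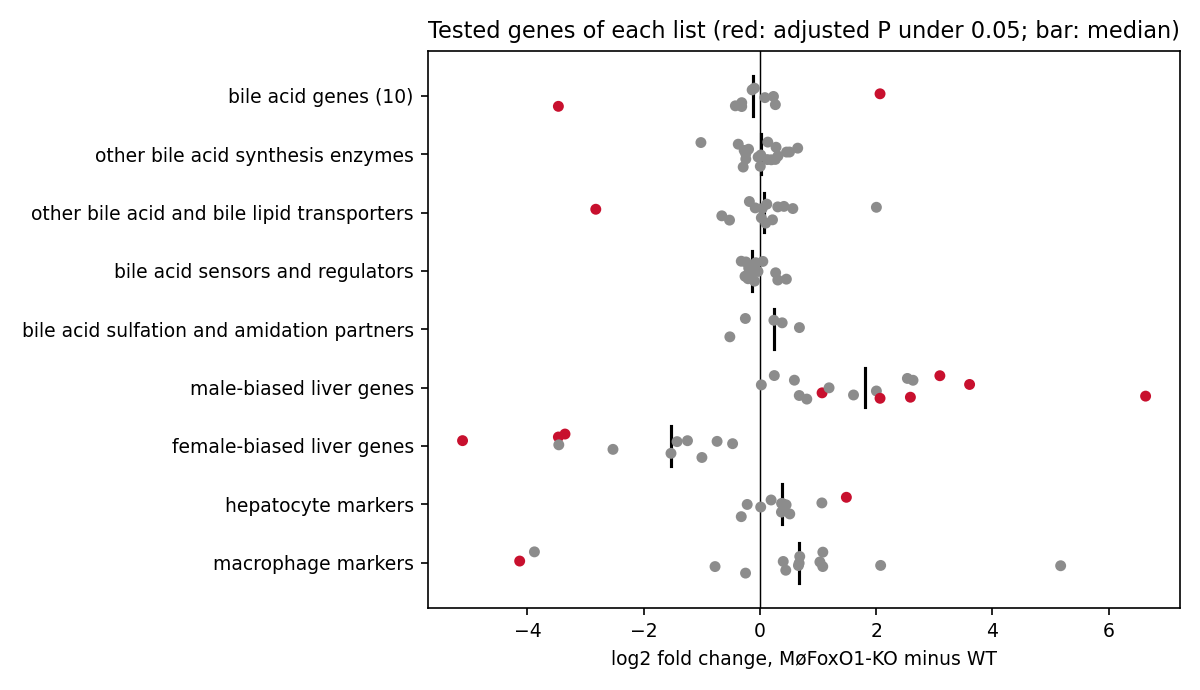
Log2 fold change (MøFoxO1-KO minus WT, horizontal axis) of every tested gene in 9 lists, with the median as a black bar and genes with an adjusted P under 0.05 in red. The male-biased genes lie above 0 (median 1.81) and the female-biased genes below 0 (median -1.53), while the other synthesis enzymes have a median of 0.01.

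Markers of the cell types in liver are given beside these differences. Over all genes tested, edgeR called 0.294%, and at an unadjusted P under 0.05 it had 8.65% higher and 8.06% lower. Of 11 hepatocyte markers tested, 9 were higher (median log2 fold change 0.37), 1 was called (Serpina1c, 1.49, itself a member of a family of near-identical genes), 4 were higher at an unadjusted P under 0.05, and their summed level was 1322000 to 1764000 normalized counts in WT and 1621000 to 2289000 in MøFoxO1-KO livers. Pericentral markers, from the zone of the lobule where Cyp7a1 is enriched, had a median of 0.07, and periportal markers one of 0.22, with none of 12 called in either list by edgeR and an unadjusted P under 0.05 in 2 and 3 genes. Of 8 cholangiocyte markers tested, 7 were lower (median -0.27), with none called by edgeR, 1 lower at an unadjusted P under 0.05, and sums of 1684 to 2127 in WT and 1399 to 1863 in MøFoxO1-KO livers. Macrophage markers had 10 of 14 higher (median 0.67) and 1 called, Gpnmb at -4.13, with 5 higher and 2 lower at an unadjusted P under 0.05 and sums of 3204 to 5495 in WT and 3352 to 14820 in MøFoxO1-KO livers. Stellate cell markers had a median of -0.06 with none of 11 called by edgeR (3 lower at an unadjusted P under 0.05), and all 10 endothelial markers were higher (median 0.24), with none called and none at an unadjusted P under 0.05. Gpnmb held 1 to 8 counts in MøFoxO1-KO livers, so it was tested because of its WT level. No marker was at 0 in all 8 libraries. The summed level of each cell type list, which its most abundant markers dominate, overlapped between genotypes. Serpina1c and Gpnmb kept their call in 2 and 1 of 8 omissions, with the highest adjusted P, 0.135 and 0.156 in edgeR, without KO 27, and Gpnmb had an adjusted P of 0.138 in limma-voom. The part of cell composition in both differences was not tested.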

How the data were processed

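Whole-liver poly-A RNA libraries (NEBNext Ultra) from 4 WT and 4 MøFoxO1-KO mice were sequenced by the authors, who deposited raw read counts per gene, with exon lengths, in 1 table. The submitters' processing notes name STAR, featureCounts and mm10. Their versions and settings are not given in the sources used here. Gene IDs were matched to GENCODE M21 symbols (46005 of 46517 matched, and unmatched IDs held 0.0399% of counts). Columns were assigned to mice by name. Genes were filtered with filterByExpr (minimum count 10, minimum total 15), scaled by TMM and tested with edgeR 4.0.16 (quasi-likelihood test, common biological coefficient of variation 0.256) in R 4.3.3, with Benjamini-Hochberg adjustment over 13278 genes. Normalized counts are counts per TMM-effective library, rescaled to a common size. The exact permutation tests compared normalized counts between genotypes. The script was tested on simulated counts. Depth was 15253218 to 18025481 counts per mouse. Alternatives were DESeq2 1.42.0, limma-voom (limma 3.58.1), a robust fit, 2 other scalings, 2 other filters and each mouse left out. The 10 genes and all lists were chosen with earlier results of these data known. The named genes were these 10, Foxo1, and in each list the called genes or else up to 4 with the smallest P. Other genes, among them Slco1a1, Slco1a4, Abcc3, Nr0b2, Dbp, Cyp2a12 and Cyp2c70, were chosen after their values were seen. Of the list of regulators, 1 gene is not reported here and was left out of its counts. Protein sequences and promoters are not shown.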

Additional observations from a re-analysis of the deposited data

Results flagged for a closer look

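In each genotype, the highest or lowest of 4 mice was compared with the others, and its gap to the nearest mouse, as a share of the whole range, was set against Dixon's critical value at the 95% level. Of 120 groups of 4 tested, over 54 genes and 6 ratios, 6 exceeded it, and chance alone gives about 5% of groups. Baat in MøFoxO1-KO livers was set apart by KO 26, at 5191 normalized counts. It was the only value among the 10 bile acid genes that stood apart in this way. The others were Sult2a7 in MøFoxO1-KO (116 in KO 29, the highest), Slc1a2 in WT (4898 in WT 25, the highest), Cyp2f2 in WT (13790 in WT 23, the highest), Epcam in WT (22.6 in WT 23, the lowest) and Col3a1 in WT (1231 in WT 22, the highest), all in normalized counts. WT 23 supplied 2 of the 6.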

How the results depend on the processing

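The log2 fold change was recomputed under 15 alternatives (8 omissions of a mouse and 7 others) for 54 genes, and 51 kept their sign in every one that gave a value. Cyp7a1 ranged from -1.18 to 0.21 as mice were left out (0.21 without WT 23, 0.08 without KO 27, and -1.07 in limma-voom), Abcb11 from -0.34 to 0.016 (0.016 without KO 28) and Sult2a7 from -0.091 to 0.55 (-0.091 without KO 29). Cyp7b1 (1.84 to 2.30) and Cyp39a1 (-4.23 to -3.21) kept their direction in all omissions and their call in 2 and 3 of 8, and both were called under the 7 others. The adjusted P there was 4.23e-08 to 0.0495 and 1.21e-12 to 0.0346, from DESeq2, edgeR or limma-voom. The number of the 10 genes called was 2, and 0 to 2 with a mouse left out (0 without WT 22, WT 25, KO 26, KO 27 or KO 29, 1 without WT 24). Of all genes, 39 were called by edgeR, 586 by DESeq2, 24 by limma-voom, 205 with no low-count filter and 3 to 129 with a mouse left out. With the limit on fold change added, the numbers were 25, 144, 13, 120 and 3 to 82. Other pathway genes called were 1, 3 with DESeq2, 0 with limma-voom, 2 without the filter and 0 to 2 with a mouse left out. Male-biased genes called were 6, 12 with DESeq2, 10 without the filter and 0 to 8 with a mouse left out. Female-biased genes called were 3, 6 with DESeq2, 7 without the filter, 1 with at least 10 counts in every mouse, and 0 to 4 with a mouse left out. Hao2 and Cyp2a4 were not tested where at least 10 counts in every mouse were required. The omissions leave 7 mice, and the cause of the other shifts was not tested. No paired analysis was possible because the genotypes share no animal number and litters are not given.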
